A study of Macaca fascicularis with 2 samples.

Results

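Cells carrying SLC14A1, the facilitative urea transporter UT-B, formed a minority of the non-notochordal cells of monkey disc and knee cartilage. Members were selected in 1 single-cell library as cells with 1 of 4 surface tags (A951 to A954), fewer than 5 reads of KRT19, and SLC14A1 at 50 or more reads for each 1000000 reads of the cell (rpm). The rule kept 246 of 5311 such cells, out of 5723 cells in the library, and because SLC14A1 reads chose them, every gene difference given here is a description of that choice without a test. The cells came from wild-type male cynomolgus monkeys (Macaca fascicularis) of 3 years, from the gelatinous nucleus pulposus (NP) of the lumbar intervertebral disc and from articular cartilage (AC) of the femoral condyle of 2 animals. The tissue was digested enzymatically, labelled with an oligonucleotide tag per tissue sample, sorted for tagged live cells and pooled, with no treatment and no genotype other than wild type. The sources used here pair no tag with a tissue or an animal. The labels and the study's methods name 3 tissue samples, and a supplementary figure names 4, so the tags are treated as numbers only. There was 1 library and no replicate of it, so the intervals below, on counts of cells, cover counting error alone. Reads were kept with their PCR copies.

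Urea crosses cell membranes slowly unless a transporter is present. SLC14A1 encodes a channel-like protein that lets urea move down its gradient in either direction. It is best known from red blood cells, where it carries the Kidd blood group antigens, and from the vessels of the renal medulla, and it is also known from cartilage, a tissue without vessels whose fixed charges on aggrecan keep the matrix at high osmolarity. KRT19 is a keratin that marks notochordal cells of the disc, so its limit leaves the chondrocyte-like cells of the NP together with articular chondrocytes.

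SLC14A1 was read strongly in few cells and at trace level in the others. Members held from 4 to 596 SLC14A1 reads with a median of 43.5, and 236 of the 246 held 10 or more. Their levels ran from 50.2 to 2048 rpm with a median of 199.95 rpm. A further 345 cells had SLC14A1 reads under the threshold, and 247 of those (71.6%) had exactly 1 read. Members therefore held 94.8% of the 16316 SLC14A1 reads of the 5311 cells, and 4720 cells had no read at all. The members just inside the threshold stood at 50.2, 51.1 and 51.4 rpm, and the cells just outside it at 49.7, 47.8 and 44.7 rpm. Cells with 5 or more KRT19 reads served as a cell type in which few SLC14A1 reads were found. Of these 363 cells, 2 passed 50 rpm (0.551%, exact binomial 95% interval 0.0668 to 1.98), against 4.63% (4.08 to 5.23) of the cells below the KRT19 limit. Any SLC14A1 read was found in 5.23% of the KRT19 cells and in 11.1% of the others, at median depths of 172935 and 199212 reads per cell. With every cell thinned to 50000 reads and shallower cells left out, the shares at 50 rpm were 0.576% and 4.40%, and the shares with any read 2.59% and 6.75%. SLC14A2, the kidney urea transporter encoded beside SLC14A1, was detected in 10 members and in 10 matched cells, at pooled levels of 0.160 and 1.05 rpm.

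Members were present under each tag, and their share was lowest under A953. They made up 56 of 921 cells under A951 (6.08%, 4.63 to 7.82), 48 of 861 under A952 (5.57%, 4.14 to 7.32), 29 of 1377 under A953 (2.11%, 1.41 to 3.01) and 113 of 2152 under A954 (5.25%, 4.35 to 6.28). The intervals of A951, A952 and A954 overlapped each other, and that of A953 overlapped none of them. After thinning to 50000 reads the shares were 5.64%, 5.21%, 1.68% and 5.26% in the same order. The median SLC14A1 level of the members was 206 rpm under A951, 186 under A952, 158 under A953 and 212 under A954, with wide overlap between the tags. Cells with 5 or more KRT19 reads were 76 under A951, 271 under A952, 6 under A953 and 10 under A954. A953 and A954 thus both held few KRT19 cells and had unlike shares of members.

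**Figure D1:**
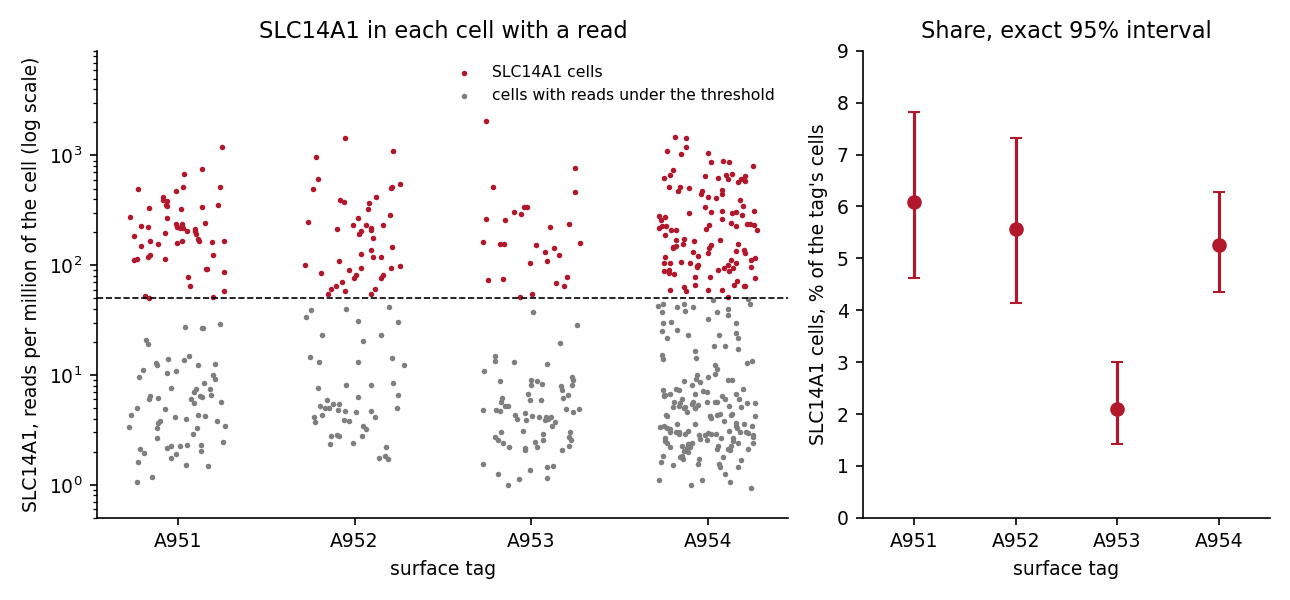
Left, SLC14A1 in rpm on a log axis for each cell with at least 1 SLC14A1 read, by surface tag, with the 50 rpm threshold dashed, members in red and cells under the threshold in grey. Right, members as a percentage of the tag's cells with exact 95% intervals, from 6.08% under A951 to 2.11% under A953.

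To describe the members across genes, each was paired with 1 cell without SLC14A1 reads that had nearly the same number of genes detected. Members had a median of 3949 genes, 217348 reads and 1.36% mitochondrial reads, and the matched cells 3948.5 genes, 217406 reads and 1.42%. Tag was left free in this pairing, and 69 matched cells came from A951, 34 from A952, 73 from A953 and 70 from A954, so that A953 was represented more heavily among them than among members. Reads were pooled over each side, and 9800 genes with a read in 10% or more of either side's cells were compared, SLC14A1 left out. At least 2-fold higher in members were 688 genes (7.02%), and at least 2-fold lower 572 (5.84%), with a median log2 ratio over all genes of -0.03. Matching each member to 10 cells, a choice made once the data had been seen, brought the counts to 340 higher and 441 lower. Requiring in addition the same sign within each tag, against cells matched inside that tag, and a matching difference in the share of cells at 50 rpm left 213 genes higher (2.17%) and 185 lower (1.89%). Pairs matched inside tags, 245 in all, gave 640 higher (6.55%) and 569 lower (5.82%) of 9771 genes. Most such ratios rested on few cells. For the median gene, 9 members held 50% of the pooled reads, and genes are therefore described below first by the share of cells at 50 rpm or more, an ordering chosen after the values were seen, and then by pooled level. By that share, 456 genes were higher (4.65%) and 564 lower (5.76%) under each of the 4 tags.

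CNMD, which encodes chondromodulin, an anti-angiogenic glycoprotein of avascular cartilage, differed most among the genes with a higher share. It reached 50 rpm in 143 members (58.1%, 51.7 to 64.4) and in 49 matched cells (19.9%, 15.1 to 25.5). By tag, the shares were 67.3% of members against 25.5% of matched cells under A951, 52.1% against 22.9% under A952, 55.2% against 6.90% under A953 and 56.6% against 22.1% under A954. Values by tag here and below come from the pairs matched inside each tag. The members' share was thus similar under the 4 tags, and the matched cells' share was lowest under A953. The pooled CNMD level was 640 rpm in members and 123 rpm in matched cells, a ratio of 5.21 (log2 2.38, by tag 1.07 to 4.52), and the median member stood at 184 rpm where the median matched cell had 0. CCDC80, a secreted matrix-associated protein, reached 50 rpm in 53.7% of members (47.2 to 60.0) and 18.7% of matched cells (14.0 to 24.1), with pooled levels of 471 and 110 rpm. FGFBP2, of the family of proteins that bind fibroblast growth factors, reached it in 32.5% (26.7 to 38.8) and 8.54% (5.36 to 12.8). Under A953, 31.0% of members and none of 29 matched cells carried FGFBP2 at that level, whereas under A951 the shares were 38.2% and 18.2%.

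Further genes with a higher share had varied roles. GADD45B, induced by stress and by TGF-beta, reached 50 rpm in 54.5% of members and 24.4% of matched cells, and its pooled level of 1424 against 320 rpm rested on 6 cells for 50% of the reads on each side. MYC, the growth-promoting transcription factor, reached it in 66.3% (60.0 to 72.1) against 41.1% (34.8 to 47.5), with 82.8% against 37.9% under A953 and 60.2% against 47.8% under A954. CLCF1, a cytokine of the interleukin-6 family, was at that level in 60.2% against 34.1%, and SFRP5, a secreted WNT inhibitor, in 49.2% against 26.0%. SERPINE2, which inhibits serine proteases at the cell surface and in the matrix, was there in 71.5% against 49.2%, and BHLHE40, a transcriptional repressor of the circadian system, in 60.2% against 39.0%. BHLHE40 had a higher share under each tag, but its pooled log2 ratio was -0.16 under A953. C12orf75, TMEM88, LMCD1, ITM2C, CRISPLD1 and CPZ completed the 15 genes with the greatest difference in share, with differences between members and matched cells that thinning to 50000 reads left in the same direction. Not all of these genes were low in notochordal cells. In the KRT19 cells, 52.1% carried GADD45B, 49.9% MYC and 74.7% BHLHE40 at 50 rpm, against 14.0% for CNMD and 0.275% for FGFBP2.

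**Figure D2:**
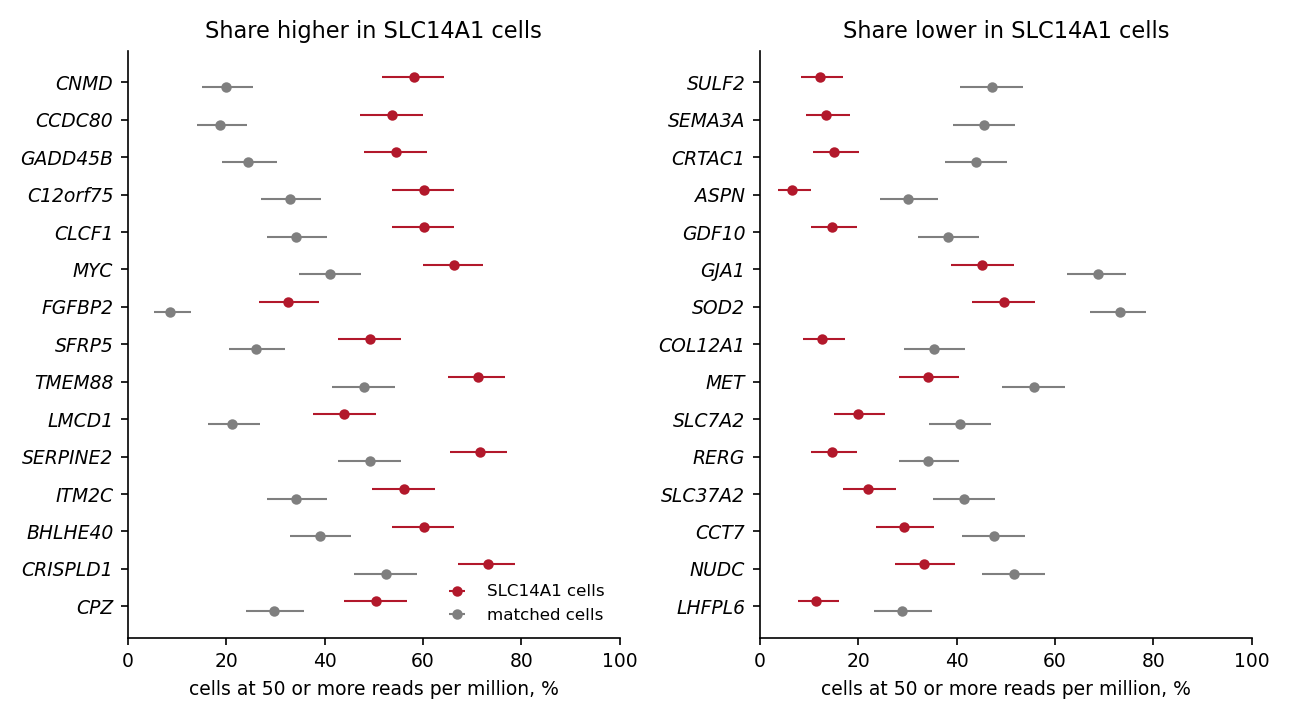
Percentage of members (red) and matched cells (grey) at 50 or more rpm for the 15 genes with the greatest positive and the 15 with the greatest negative difference that held its direction under each tag, with exact 95% intervals. CNMD stood at 58.1% against 19.9% and SULF2 at 12.2% against 47.2%.

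The genes with a lower share in members likewise had varied roles. SULF2, an endosulfatase that edits heparan sulfate, reached 50 rpm in 30 members (12.2%, 8.38 to 16.9) and 116 matched cells (47.2%, 40.8 to 53.6). The shares by tag were 7.27% of members against 32.7% of matched cells under A951, 10.4% against 33.3% under A952, 10.3% against 62.1% under A953 and 15.9% against 36.3% under A954. ASPN, asporin, a leucine-rich proteoglycan that binds TGF-beta, reached it in 16 members (6.50%, 3.76 to 10.3) and 74 matched cells (30.1%, 24.4 to 36.2). By tag, the ASPN shares were 1.82% of members against 16.4% of matched cells under A951 and 0% against 6.25% under A952. Under A953 they were 3.45% against 31.0%, and under A954 12.4% against 31.0%. The pooled ASPN level was 51.4 rpm in members and 424 rpm in matched cells, an 8.26-fold difference (log2 -3.05, by tag -5.66 to -1.83). CRTAC1, a calcium-binding matrix protein of cartilage, was at 50 rpm in 15.04% of members (10.8 to 20.1) and 43.9% of matched cells (37.6 to 50.3). Under A952 only 4.17% of members carried CRTAC1 and under A954 21.2%, against 27.1% and 47.8% of the matched cells. SEMA3A, a secreted axon and vessel repellent, was there in 13.4% against 45.5%, COL12A1, a collagen that decorates fibrils, in 12.6% against 35.4%, and GDF10, a divergent member of the BMP family, in 14.6% against 38.2%. GJA1, the gap junction protein connexin 43, stood at 45.1% against 68.7%, SOD2, the mitochondrial superoxide dismutase, at 49.6% against 73.2%, and MET, the receptor of hepatocyte growth factor, at 34.1% against 55.7%. SLC7A2, a carrier of arginine and other cationic amino acids, stood at 19.9% against 40.7%. RERG, SLC37A2, CCT7, NUDC and LHFPL6 completed the 15, and of these CCT7 and SLC37A2 had pooled log2 ratios that were not negative under each tag (highest 0.27 for CCT7 and 0.00 for SLC37A2).

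PRG4 encodes lubricin, the boundary lubricant made by cells at the cartilage surface. All 246 members and all 246 matched cells had PRG4 at 50 rpm or more, as did each KRT19 cell, so its share at that threshold separated no cells. Its lowest cell stood at 95.5 rpm among members, 76.0 among matched cells and 54.9 among KRT19 cells, a floor present in both cell types examined, and the part of free RNA in it was not tested. Above the floor the groups differed. The median PRG4 level was 255 rpm in members, 5187 rpm in matched cells and 174 rpm in KRT19 cells. At 1000 rpm or more, a level chosen after the values were seen, were 82 members (33.3%, 27.5 to 39.6), 188 matched cells (76.4%, 70.6 to 81.6) and 22 KRT19 cells (6.06%). The pooled level was 2633 rpm in members and 14215 rpm in matched cells (log2 -2.43), and within tags the log2 ratio was -2.69 under A951, -2.75 under A952, -4.01 under A953 and -1.66 under A954. INHBA, the subunit of activin A, also differed in its upper range. It was at 50 rpm in 95.5% of members, 96.7% of matched cells and 92.0% of KRT19 cells. Its median was 138 rpm in members, 2603 rpm in matched cells and 86.4 rpm in KRT19 cells, and 28.5% of members, 61.8% of matched cells and 8.54% of KRT19 cells were at 1000 rpm or more.

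**Figure D3:**
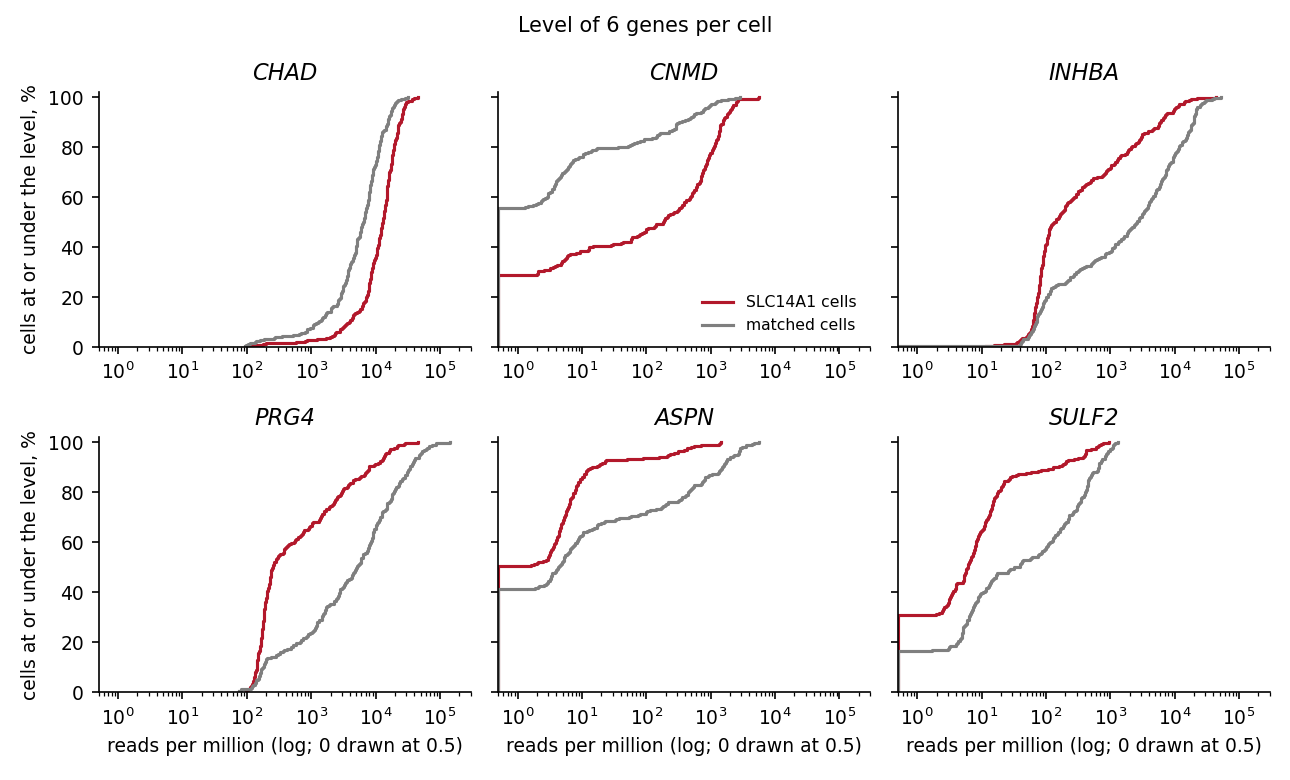
Cumulative percentage of cells at or under each level in rpm (log axis, 0 drawn at 0.5) for CHAD, CNMD, INHBA, PRG4, ASPN and SULF2 in the 246 members (red) and the 246 matched cells (grey). The curve of members lies to the right for CHAD and CNMD and to the left for the other genes, with PRG4 medians of 255 and 5187 rpm.

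Within the members these shares showed no common order along the SLC14A1 level that had chosen them. Members were split by SLC14A1 into 3 equal classes of 82 cells, with medians of 86.0, 199.95 and 495 rpm, and set beside the 345 cells under the threshold and all 4720 cells without reads. CNMD was at 50 rpm in 18.6% of cells without reads, 34.2% of cells under the threshold, and 61.0%, 58.5% and 54.9% of the 3 classes of members. Cells with trace SLC14A1 thus lay between the others, and the 3 classes had overlapping intervals. For SULF2 the shares were 44.4%, 43.2%, 14.6%, 8.54% and 13.4%, so that cells under the threshold stood with the cells without reads. ASPN gave 26.0%, 28.1%, 9.76%, 2.44% and 7.32%, and CRTAC1 43.4%, 39.7%, 19.5%, 11.0% and 14.6%. FGFBP2 was most frequent in the class of members with the least SLC14A1, at 41.5% against 29.3% and 26.8% in the next classes. GADD45B was at 53.7%, 47.6% and 62.2% of the 3 classes. Depth moved along with these classes, the median number of genes being 3740 without reads, 4628 under the threshold and 4290.5, 3985.5 and 3529 in the members. Thinned to 50000 reads, the CNMD shares were 18.9%, 33.1%, 60.0%, 59.3% and 56.2%, and those of SULF2 44.6%, 41.9%, 16.2%, 7.41% and 13.8%.

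**Figure D4:**
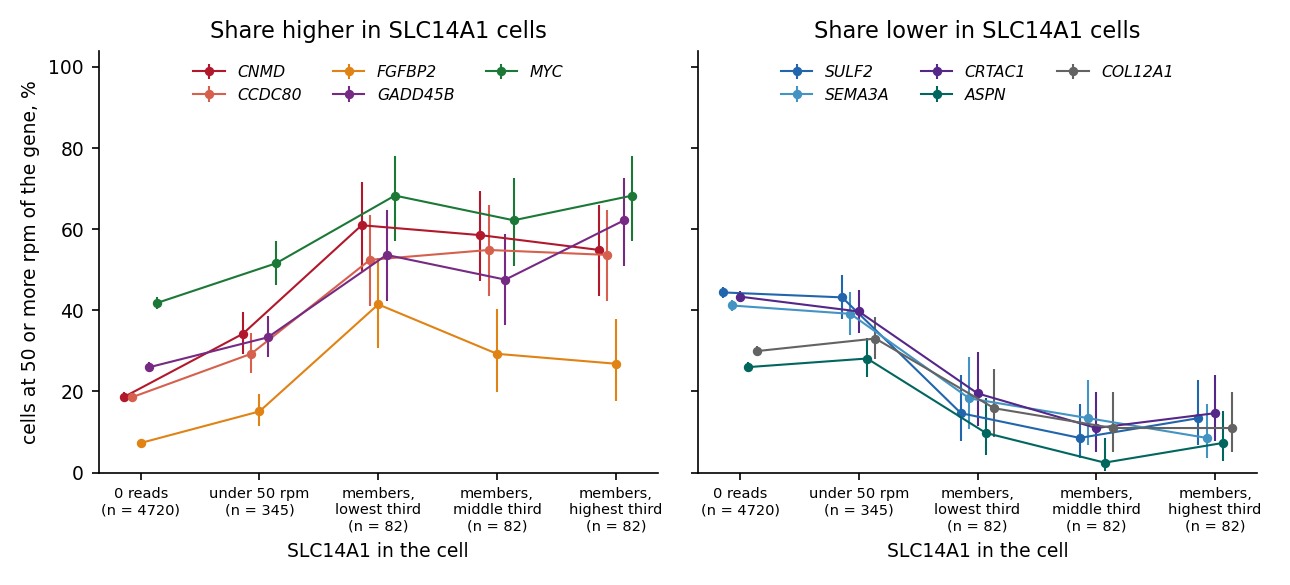
Percentage of cells at 50 or more rpm of 5 genes with a higher share (left) and 5 with a lower share (right) in members, over cells with 0 SLC14A1 reads, cells under 50 rpm and members in 3 classes of 82 by rising SLC14A1, with exact 95% intervals. CNMD went from 18.6% to 61.0% between cells without reads and the first class of members, and SULF2 from 44.4% to 14.6%.

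Ordered by the ratio of pooled levels instead, the genes that led were rare ones. IBSP, bone sialoprotein, a mineral-binding protein of bone and of hypertrophic cartilage, was at 385 rpm in members and 1.40 rpm in matched cells, but a single member held more than 50% of its reads and 13 members (5.28%) against 3 matched cells (1.22%) were at 50 rpm. Without the cell with most reads on each side its log2 ratio was 7.45 in place of 8.10, whereas that of TAC1, the precursor of substance P, went from 6.17 to 1.77. SPP1, osteopontin, was the most widespread of this set, at 50 rpm in 55 members (22.4%) and 25 matched cells (10.2%), and at 2462 against 157 rpm when pooled. Both ratios depended on the cells compared. Pooled over all 4720 cells without SLC14A1 reads, SPP1 was at 648 rpm and IBSP at 8.32 rpm. Under the alternatives tried, the log2 ratio ran from 0.99 to 5.26 for SPP1 and from 0.52 to 9.48 for IBSP. The SPP1 shares by tag were 20.0% of members against 7.27% of matched cells under A951, 20.8% against 22.9% under A952, 31.0% against 6.90% under A953 and 21.2% against 15.9% under A954. Thinned to 50000 reads, SPP1 was at 50 rpm in 23.2% of members and 16.5% of matched cells. SMPD3, OXT, GLP2R, AMOT, F13A1, ZNF446, CA8, TMEM104, ADORA1, PYGL and DUSP2 also belonged to this set, with log2 ratios between 3.12 and 5.23 and between 5 and 18 members at 50 rpm. With cells downsampled to 50000 reads, F13A1 and TMEM104 turned to log2 ratios of -0.91 and -0.68. In the other direction ASPN led. It was followed by NETO2, BEND3, CENPF, SPATA17, PDGFD, HLA-F, NELL2, C2, LRRN4CL, IGSF21, ZNF408, CAMK1, F5 and XPNPEP3, with log2 ratios from -3.00 to -2.26, of which that of XPNPEP3 turned to 1.58 with downsampling. Of these, NELL2, a secreted EGF-like protein, was the most widespread, in 2.44% of members and 11.0% of matched cells.

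Few other genes of urea and water handling were read in 10% of cells. Of 13 listed genes of urea transport and the urea cycle in the count table, 4 besides SLC14A1 passed the detection filter, and 1 was at least 2-fold higher, with a median log2 ratio of 0.90 against -0.03 over all genes, of which 7.02% were at least 2-fold higher. With pairs inside tags, 3 of the 4 were at least 2-fold higher, with a median of 1.08, against 6.55% of all genes. All 4 (ARG2, AQP3, AQP7 and CPS1) had mixed signs over the tags. The gene higher in both was ARG2, the mitochondrial arginase that releases urea from arginine, at 35.1 rpm in members and 5.77 rpm in matched cells. It was at 50 rpm in 6.50% and 2.44% of cells, 3 members held 50% of its reads, and its log2 ratio was -0.65 under A951, -0.74 under A952, 4.61 under A953 and 1.81 under A954, so no common direction was seen. AQP3, a water and glycerol channel that also passes urea, was at 71.3 against 38.3 rpm (log2 0.90) and at 50 rpm in 15.04% against 13.4% of cells. AQP7, another such channel, was at 18.0 against 9.60 rpm (log2 0.91). CPS1, the entry enzyme of the urea cycle, stood at 2.60 against 2.42 rpm, and ARG1, OTC, NAGS, AQP9 and AQP10 were at 0.176 rpm or less on both sides. Of the other water channels counted, AQP2, AQP4, AQP5, AQP6 and AQP11 were at 0.305 rpm or less on both sides, and AQP1 is not analysed here. SLC25A15, the mitochondrial ornithine carrier, and AGMAT, an enzyme that releases urea from agmatine, were at 1.35 and 1.20 rpm in members and at 0.270 and 0.0954 rpm in matched cells, each from 10 members with a read.

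Genes of osmolyte accumulation and cell volume control were mostly within 2-fold. Of 21 compared, 3 were at least 2-fold higher (SLC6A12, LRRC8B and SGK1), where 7.02% of all genes were, and none at least 2-fold lower, and inside tags none passed in either direction. The median log2 ratio was 0.16. NFAT5, the transcription factor of the response to high osmolarity, stood at 33.8 rpm in members and 32.7 rpm in matched cells (log2 0.05). Its target AKR1B1, which makes sorbitol, was at 42.7 against 46.5 rpm (log2 -0.12), and SLC6A6, the taurine carrier, at 3.05 against 5.93 rpm (log2 -0.96). SLC6A12, the betaine carrier, was at 14.1 against 3.97 rpm, but its log2 ratio ran from -6.68 to 6.40 over the tags and 2 members held 50% of its reads. TRPV4, a cation channel that opens on swelling, was at 401 against 360 rpm (log2 0.16). Among the subunits of the volume-regulated anion channel, LRRC8C stood at log2 0.42, LRRC8D at 0.45 and LRRC8B at 1.16. The ion carriers SLC12A2 and SLC12A4 had log2 ratios of -0.22 and 0.09, the kinases WNK1, OXSR1 and STK39 that govern them 0.03, 0.32 and 0.21, and the sodium pump subunits ATP1B1 and ATP1B3 -0.44 and -0.35. SLC38A2 was at -0.47, CLCN3 at 0.20 and VASP at 0.91.

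The cartilage matrix programme was present in members at levels close to, or a little above, those of matched cells. SOX9, the master regulator of chondrocytes, was at 50 rpm in 58.9% of both groups, with pooled levels of 310 and 328 rpm. COL2A1, the main fibrillar collagen of cartilage, was read at 26272 rpm in members and 19368 rpm in matched cells (log2 0.44, by tag 0.08 to 0.92), COL9A1 at 6727 against 4791 rpm (0.49) and ACAN, aggrecan, at 4251 against 3827 rpm (0.15). CHAD, chondroadherin, a leucine-rich protein that binds chondrocytes and type II collagen, was at 13633 rpm in members and 7287 rpm in matched cells, with log2 ratios of 0.77, 0.50, 1.34 and 0.85 under the 4 tags in order. Its median was 12886 rpm in members and 6448 rpm in matched cells. SNORC, a transmembrane proteoglycan of chondrocytes, had log2 ratios between 0.39 and 0.84. Of 15 genes of the cartilage collagen and aggrecan list compared, only CNMD passed 2-fold, a share near the 7.02% of all genes, and the median log2 ratio was 0.39. All 9 compared chondrocyte markers were read in members, with a median log2 ratio of 0.34, and HAPLN1, the link protein (log2 -0.10), and SOX9 (-0.08) were the markers with a lower pooled level.

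The fibrous and superficial list lay on the other side. Of 18 genes compared, 4 were at least 2-fold lower (PRG4, COL12A1, CRTAC1 and FBLN1), against 5.84% of all genes, none was at least 2-fold higher, and the median log2 ratio was -0.82. With pairs inside tags 10 were at least 2-fold lower, against 5.82% of all genes, THBS4 alone was at least 2-fold higher, and the median was -1.05. FBLN1, fibulin 1, was at 50 rpm in 19.5% of members and 38.2% of matched cells. COL14A1 stood at log2 -0.91, ABI3BP at -0.99, TNC, tenascin C, at -0.98 and CLU, clusterin, at -0.64, each with the same sign under the 4 tags. COL1A1 and COL1A2, of type I collagen, were at 50 rpm in 6.50% and 14.6% of members and in 8.94% and 24.8% of matched cells. FN1, fibronectin, THBS4, a thrombospondin, and CILP were exceptions, at log2 0.30, 0.58 and 0.21, although CILP was at 50 rpm in 17.1% of members and 30.5% of matched cells, 5 members holding 50% of its reads. Among the small leucine-rich proteoglycans, 2 of 9 were at least 2-fold lower (ASPN and OGN) and 1 higher (OMD, log2 1.48, by tag -0.37 to 7.18), and the median was -0.42. FMOD, fibromodulin, was at 4277 against 7537 rpm, lower under each tag, while DCN and BGN stood at -0.42 and -0.20.

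Genes of hypertrophy and mineralization differed unevenly. Of 9 compared, 5 were at least 2-fold higher (IBSP, ALPL, SPP1, PTH1R and PHEX), against 7.02% of all genes, none was at least 2-fold lower, and the median log2 ratio was 1.51, the highest among the lists with 5 or more compared genes. Of the 5, ALPL and PTH1R had mixed signs over the tags. After thinning each cell to 50000 reads the list median was -0.22. Unthinned, the pooled levels of the 14 counted genes of the list summed to 9927 rpm in members and 11507 rpm in matched cells. ALPL, the alkaline phosphatase of mineralizing cells, reached 50 rpm in 4 members and no matched cell. PTH1R, the receptor of parathyroid hormone-related protein, reached it in 30.1% and 22.0%. COL10A1, the collagen of hypertrophic chondrocytes, reached it in 4 members (1.63%) and 3 matched cells (1.22%), MMP13 was read in 3 and 4 cells, and IHH in none of the members and 1 matched cell. MGP, the inhibitor of calcification, was read at 4112 rpm in members and 8099 rpm in matched cells (log2 -0.98), lower under each tag.

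**Figure D5:**
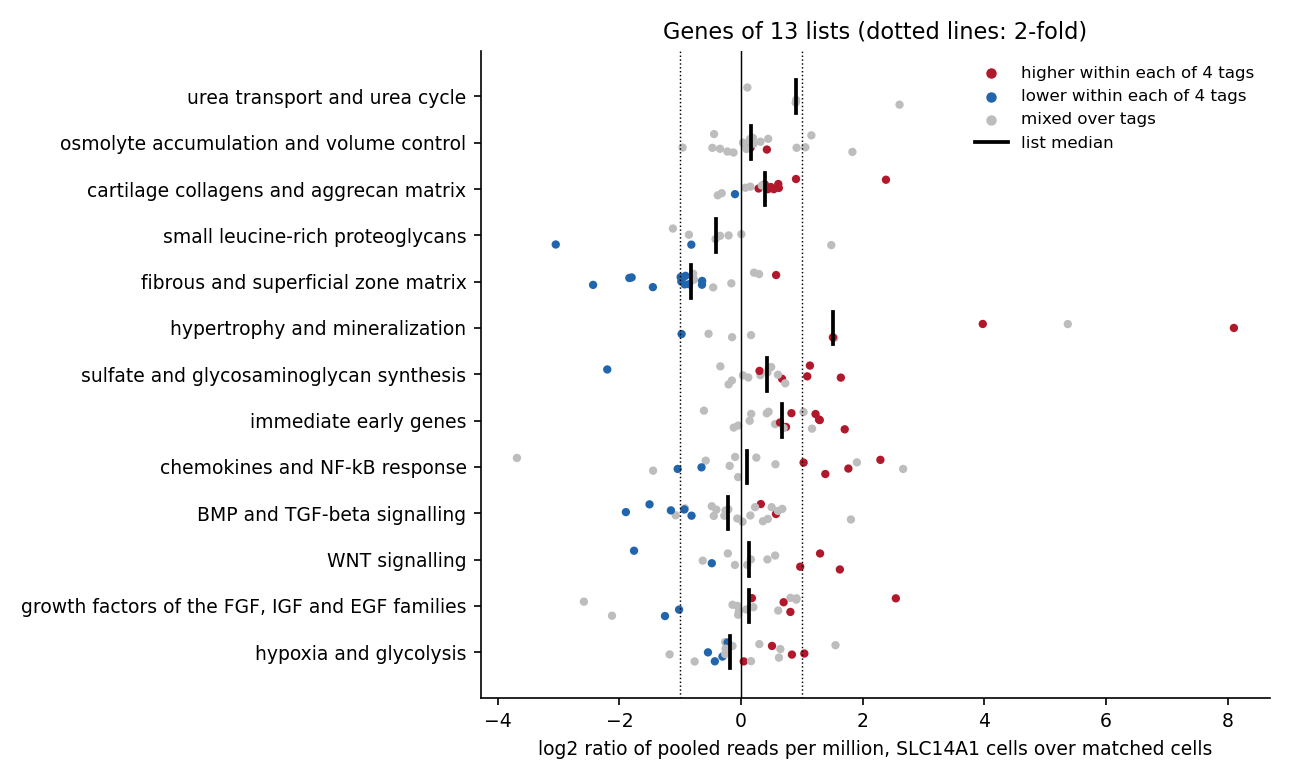
Log2 ratio of pooled rpm, members over matched cells, for each compared gene of 13 lists, with dotted lines at 2-fold, black bars at list medians, red or blue points where the sign was the same within each of the 4 tags and grey points where it was not. The fibrous and superficial list has its median at -0.82 and the cartilage collagen and aggrecan list at 0.39.

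Several response genes of early stimulation were higher. Of 18 immediate early genes, 6 were at least 2-fold higher (FOSB, EGR1, DUSP1, ZFP36, MYC and BTG2), none lower, and the median log2 ratio was 0.67, where 7.02% of all genes were at least 2-fold higher and 5.84% lower. Of the 6, 4 were higher under each tag, and FOSB and BTG2 had mixed signs. DUSP1, a phosphatase that switches off MAP kinases, was at 183 rpm in members and 56.1 rpm in matched cells, higher under each tag (log2 1.53 to 2.99), and at 50 rpm in 24.4% against 11.4% of cells. FOS itself stood at log2 0.45 with a range of -3.33 to 2.48 over tags. Among 16 chemokine and NF-kB genes, 6 were at least 2-fold higher and 3 lower with a median of 0.10, or -0.27 with pairs inside tags. The higher ones were CCL2, IL6, LIF, IL11, IL17B and PTGS2, and the lower ones CXCL1, TNFAIP6 and SOD2. IL6, LIF, IL11, PTGS2 and SOD2 kept their sign under each tag, and CCL2, IL17B, CXCL1 and TNFAIP6 did not. IL11, a cytokine of the interleukin-6 family, was at 50 rpm in 22.4% of members and 9.35% of matched cells, and PTGS2, the inducible cyclooxygenase, in 33.3% and 20.7%. Of 11 genes of the p53 and apoptosis list, GADD45A and GADD45B were at least 2-fold higher, with a median of 0.10.

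Among secreted signals, the differences were gene by gene, beside shares over all genes of 7.02% higher and 5.84% lower. Of 25 BMP and TGF-beta genes, 4 were at least 2-fold lower (INHBA, GDF10, GDF5 and GREM1) and SMAD7, an inhibitory SMAD, was higher at 27.2% against 15.04% of cells at 50 rpm but of mixed sign over the tags, with a list median of -0.21. GREM1, a BMP antagonist, was at 73.5 against 164 rpm and lower under each tag. Of 12 WNT genes, SFRP5 and NKD1 were at least 2-fold higher and RSPO2 lower, and FRZB, a secreted WNT inhibitor of articular cartilage, was just under 2-fold at 2961 against 1509 rpm (log2 0.97, by tag 0.26 to 1.37). Of 9 hedgehog genes, PTCH1, the receptor and target of the pathway, was at least 2-fold higher. It was at 50 rpm in 10.2% of members and 3.66% of matched cells, while GLI1 was in 3.66% and 2.03% and SMO in 22.4% and 19.9%. Of 18 FGF, IGF and EGF genes, FGFBP2 was the only gene at least 2-fold higher, and IGFBP4, IGFBP5, IGFBP6 and PTN were at least 2-fold lower, with mixed signs over the tags for IGFBP4 and IGFBP5. IGFBP6, which binds IGF2, was at 50 rpm in 30.5% of members and 45.1% of matched cells.

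Metabolic and transport lists held genes on both sides, and the counts for hypoxia and glycolysis, solute carriers and ion transport lay near the shares over all genes (7.02% higher and 5.84% lower). Of 20 hypoxia and glycolysis genes, 2 were at least 2-fold higher (HK2 and PFKFB3) and 1 lower (PFKFB4), with a median of -0.18, and HIF1A stood at 704 against 776 rpm. PFKFB3, which sets the level of a glycolytic activator, was at 50 rpm in 21.5% of members and 7.72% of matched cells. Of 17 genes of sulfate and glycosaminoglycan synthesis, CHST11, a chondroitin sulfotransferase, HAS2, a hyaluronan synthase, and XYLT2 were at least 2-fold higher and SULF2 lower, with a median of 0.43. Of 19 solute carriers, SLC44A2, a choline carrier, and SLC1A3 were at least 2-fold higher and SLC7A2 lower, with a median of -0.03. SLC44A2 was at 481 rpm in members and 130 rpm in matched cells and at 50 rpm in 53.7% against 32.9% of cells, with log2 ratios of 0.67 to 2.18 under the tags. Of 12 lipid transport genes, 4 were at least 2-fold higher and 2 lower. The higher ones were APOE, APOD, VLDLR and FABP3 and the lower ones ABCA1 and APOO, with a median of 0.32. APOE, apolipoprotein E, was at 50 rpm in 26.4% of members and 8.54% of matched cells and higher under each tag. Of 14 antioxidant and iron genes, HMOX1, heme oxygenase 1, alone passed 2-fold, at 656 against 325 rpm. Of 15 genes of carbonic anhydrases and ion transport, CA8 was higher and SLC4A2 and PIEZO2 were lower, with a median of -0.05. Of 17 clock genes, BHLHE40, BHLHE41 and HLF were at least 2-fold higher, each with mixed signs over the tags, with a median of 0.09. Among 8 heat shock genes CRYAB alone passed 2-fold, with a median of 0.20. Of 18 genes of proteases and inhibitors, 2 were higher, SERPINE2 among them, and ADAMTS5, HTRA3 and PLAT lower, with a median of 0.04, and of 13 skeletal transcription factors 5 were higher (RUNX2, SOX8, MEF2C, BHLHE41 and FOXA2), with a median of 0.13. MEF2C, which drives chondrocyte hypertrophy, was the only factor of these with a higher level under each tag, at 50 rpm in 32.1% of members and 15.9% of matched cells. Signs over the tags were also mixed for PFKFB3, PFKFB4, SLC1A3, APOD, VLDLR, FABP3, ABCA1, SLC4A2, ADAMTS5 and PLAT.

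Red cell and endothelial markers were at or near 0 in members, and a few markers of other cells were read at higher levels. SLC14A1 is a red cell gene, and the 6 red cell lineage genes in the table (ALAS2, AHSP, SLC4A1, EPB42, KLF1 and GATA1) summed to 0.192 rpm in members and 0.461 rpm in matched cells, with ALAS2 and KLF1 at 0 reads in members. EPB42 was the most abundant of them at 0.112 rpm, and the globin genes are not analysed here. The 8 endothelial markers summed to 8.05 against 8.25 rpm. Of 3 compared, EMCN alone was at least 2-fold higher (log2 1.44, 1 member holding 50% of its reads), where 7.02% of all genes were. ESAM was the most abundant at 4.28 against 5.50 rpm, and PECAM1, CDH5 and KDR were at 0.240, 0.160 and 0.160 rpm. The 10 immune markers summed to 18.0 against 25.8 rpm, of which CD68 gave 14.3 and 21.9 rpm, while PTPRC was at 0.561 rpm and AIF1 at 0. The 11 notochordal markers summed to 30.4 against 31.6 rpm, of which NCAM1 gave 15.4 and 19.8 rpm, with TBXT at 0.946 against 0.525 rpm and NOTO at 0.0160 against 0.0318 rpm. Of 8 compared, only KRT19, whose reads the rule itself kept under 5, was at least 2-fold higher, at 0.625 against 0.302 rpm. Over all genes the share was 7.02%. With pairs inside tags, none of 7 compared was at least 2-fold higher and 2 were lower, where 6.55% and 5.82% of all genes were. The 8 smooth muscle and pericyte markers summed to 245 against 122 rpm, led by TAGLN at 177 against 55.6 rpm, whereas ACTA2 was at 3.51 against 10.7 rpm, MYH11 at 1.81 against 1.06 rpm and CNN1 at 0. The 9 bone cell markers summed to 521 against 205 rpm, of which IBSP gave 385 rpm in members and CTSK 167 rpm in matched cells, with SP7 at 0.112 rpm and ACP5 at 0.0641 rpm. The 12 fibroblast markers summed to 4426 against 5948 rpm, led by CD55 at 2154 against 3648 rpm, with PI16 at 0. Of 9 compared markers of that list, PDPN, podoplanin, alone was at least 2-fold higher and CD34 alone at least 2-fold lower (log2 -1.30). The shares over all genes were 7.02% higher and 5.84% lower. With pairs inside tags, 2 of 9 compared fibroblast markers were at least 2-fold higher and 4 lower, with a median log2 ratio of -0.51. Over all genes those shares were 6.55% and 5.82%. PDPN was at 50 rpm in 61.4% of members and 42.7% of matched cells. Adipocyte and muscle markers summed to 66.6 against 56.4 rpm, most of it TNNT3, and nerve and glia markers to 101 against 105 rpm, almost all GFAP. Of 4 proliferation genes compared, 2 were at least 2-fold lower, where 5.84% of all genes were, among them STMN1 with mixed signs over the tags. The 12 counted genes of the list summed to 99.4 against 223 rpm.

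The members overlapped unevenly with other groups of cells defined by single genes at 50 rpm. SLC14A1 members made up 13.5% (8.53 to 19.8) of the 156 cells with IL17B and 4.36% of those without, and 1.19% (0.684 to 1.93) of the 1340 cells with ASPN and 5.79% of those without. They were 2.68% of cells with CILP against 5.45% of those without, 1.67% of cells with CRTAC1 against 6.76%, and 6.45% of cells with HMOX1 against 3.77%. For BMP2 the shares were 4.33% and 5.18%, for SMO 5.79% and 4.38%, for ID1 5.79% and 4.49%, and for COL10A1, with 52 cells, 7.69% (2.14 to 18.5) and 4.60%. SFRP2, with 246 cells, gave 2.03% (0.663 to 4.68) and 4.76%, and CXCL1, with 74 cells, 4.05% and 4.64%. The intervals of the shares with and without the gene overlapped for BMP2, SMO, ID1, COL10A1, SFRP2 and CXCL1.

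Other genes were spread unevenly over members with and without CNMD, and over matched cells likewise. Of the 143 members with CNMD at 50 rpm, 71 also carried FGFBP2 (49.7%), against 9 of the 103 members without it (8.74%). SPP1 was carried by 48 of the 143 (33.6%) and 7 of the 103 (6.80%), and all 13 members with IBSP and all 21 with IL17B were among those with CNMD. In contrast, ASPN was at 50 rpm in 3 of the 143 (2.10%) and 13 of the 103 (12.6%), and CRTAC1 in 11 (7.69%) and 26 (25.2%). Among matched cells, FGFBP2 was carried by 24.5% of those with CNMD and 4.57% of those without, SPP1 by 16.3% and 8.63%, CRTAC1 by 18.4% and 50.3%, and all 8 with IL17B had CNMD. ASPN was in 1 of 49 cells with CNMD (2.04%) and in 73 of 197 without it (37.1%). Even among cells without CNMD, members with ASPN (12.6%) were fewer than matched cells with ASPN (37.1%), and members with CRTAC1 (25.2%) fewer than matched cells with CRTAC1 (50.3%).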

How the data were processed

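The matrix that the authors deposited holds raw counts (genes by cells, whole numbers) of 1 pooled gene expression library made by TAS-Seq on a BD Rhapsody microwell system. Per the labels and the study's methods, reads were aligned with HISAT2 2.2.1 to a Macaca fascicularis genome and assigned with featureCounts 2.0.2 to whole genes with strand and with reads of several places allowed, then counted without molecular identifiers, so PCR copies, unspliced reads and reads shared by near-identical genes are included. The genome build is not given in the sources used here. A second matrix with 1358 columns names no sample of the labels and was not used, and a tag library has no counts analysed here. Doublets and untagged cells, as named in the columns, were left out (49 cells).

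Cells held from 24907 to 1649570 reads (median 198057). No further filter was applied to cells. Members and gene lists were chosen with earlier results of these data known. Members were matched 1 to 1 without replacement to cells with 0 SLC14A1 reads on genes detected, within 5% (scipy 1.17.1), and reads were pooled per side as reads per 1000000 reads (rpm). Genes detected in 10% of either side were compared, a side with fewer than 3 reads being set to 3 reads. Named genes were SLC14A1, the 15 genes per direction with the largest ratio of at least 2-fold, of the same sign within each tag and in the share of cells at 50 rpm, and genes of the 35 lists. Some genes of these lists are not reported here. The 15 per direction ordered by share were chosen after their values were seen. With 1 library no test was made. Shares have exact Clopper-Pearson 95% intervals. Procedures were tested on simulated data. Alternatives changed the threshold, cell limits, depth, matching, summary, filter, tags and fold.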

Additional observations from a re-analysis of the deposited data

How the results depend on the processing

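With 1 library no call could be checked against replicates. The replicate number shared in the labels joins an expression library to its tag library and pairs no biological samples. No result comes from a test. Cells paired inside tags gave 640 genes at least 2-fold higher and 569 lower. Under the alternatives tried for them, the number of members lay between 188 and 286. The range of their share over tags then lay between 3.51 and 4.37 percentage points. The exception was a threshold of 200 rpm, with 123 members and a range of 2.28 percentage points. With that threshold, 1080 genes were at least 2-fold higher and 971 lower. The counts of 688 and 572 otherwise became 357 and 316 with cells downsampled to 50000 reads, 92 and 55 on the mean of log2(rpm + 1), 1651 and 1380 for genes detected in 1 cell, 247 and 190 for detection in 25% of cells, 203 and 164 for detection from 5 reads, 1043 and 1043 without tag A954, 1533 and 1478 at 1.5-fold, and 232 and 184 at 3-fold. The counts became 323 and 403 without matching and 340 and 441 with 10 matched cells each, so that lower genes then outnumbered higher ones. The last setting, and leaving out the top cell of each gene (721 and 617), were chosen after the data were seen. Downsampling turned the log2 ratio of F13A1 to -0.91, of TMEM104 to -0.68 and of XPNPEP3 to 1.58, and the median of the hypertrophy and mineralization list to -0.22. The cause was not tested. The ratios of CNMD (1.82 to 3.48), ASPN (-3.97 to -1.92) and SULF2 (-2.44 to -1.75) kept their sign under each alternative run for them.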
